A study of Mus musculus with 9 samples.

Results

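Bone marrow-derived macrophages given the LXR agonist T0901317 (T0) and then LPS were compared with macrophages given the DMSO vehicle alone, to describe the net state of both agents together relative to resting cells. The comparison used 6 of the 9 libraries of polyA RNA in the count table, T0+LPS replicates 1 to 3 against vehicle (Veh) replicates 1 to 3, and every transcript that passed a low-count filter, which left 9859 of 32850 RefSeq transcripts. Cells of wild-type C57BL/6J mice were differentiated in L-cell conditioned medium and deprived of serum before treatment. The mice were female by the study's methods, which also give their age range, while the labels give no age. Veh cells received DMSO, LPS cells received DMSO and then LPS at 10 ng/mL, which stayed on for 2 hr, while T0+LPS cells were first given 500 nM T0901317, 3 hr ahead of LPS at the same dose and for the same time. Each library came from an independently differentiated culture. The labels do not state when Veh cells were harvested, so time in culture and the effect of the agents cannot be told apart. T0 without LPS was not analysed here. Library totals were 16467983, 13299044 and 15086484 reads for Veh, 13534065, 14690038 and 13661218 for LPS and 14007625, 15320506 and 15495207 for T0+LPS. LPS libraries served as the reference for what LPS alone had changed and for what T0 changed on top of it.

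LXRs are nuclear receptors for oxidised cholesterol derivatives, and in macrophages they raise transcription of genes for cholesterol efflux, phospholipid remodelling and fatty acid desaturation. LPS is a bacterial glycolipid that Toll-like receptor 4 detects, and its signal reaches NF-kB, AP-1 and interferon regulatory factors, which drive cytokines, chemokines and their own feedback inhibitors. LXR agonists are known both for activating lipid genes and for lowering part of the inflammatory programme.

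The labelled cell type was checked against marker genes. Of 12 macrophage markers, 11 were in the table and 10 reached 5 CPM (reads scaled to a common library size with TMM factors). Their summed level was 29259.9 ± 1246 CPM in Veh, 35117 ± 809 in LPS and 38073 ± 708 in T0+LPS (mean ± SD, n = 3). Lyz2, which encodes lysozyme, was the most abundant of them. Itgam, the integrin alpha M chain, was at 0 in every library, and its transcripts in the table share nearly all of their bases, where reads were not assigned. No marker of neutrophils, T cells, B cells, NK cells, dendritic cells, mast cells, erythroid cells or fibroblasts reached 5 CPM. Summed neutrophil markers, led by S100a8, stood at 1.18 CPM in Veh and 2.14 in T0+LPS, and dendritic cell markers, led by Xcr1, at 0.325 and 2.47. All 5 erythroid markers were at 0. In bulk RNA, fewer cells of a type and less RNA per cell cannot be told apart. The ribosomal RNA precursor Rn45s varied between libraries, at 923, 1957 and 954 CPM in Veh and 1171, 2805 and 3402 in T0+LPS. These ranges overlapped, edgeR called the difference (log2 fold change 0.92, SE 0.298, adjusted p 0.013) and DESeq2 did not, and what Rn45s contributed to other differences was not tested.

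Of the 9859 transcripts tested with edgeR, 3160 (32.1%) were called higher in T0+LPS than in Veh at an adjusted p under 0.05, 3234 (32.8%) were called lower and 3465 were not called. Most called differences were small. The median fold was 1.39 among transcripts called higher, and transcripts called lower were 1.48-fold lower at the median. Large differences lay mostly on the raised side. At 10-fold or more, 165 transcripts were higher and 13 lower, while at 2-fold or more the counts were 761 and 724. Every T0+LPS library exceeded every Veh library for 3106 of the transcripts called higher and lay under every Veh library for 3081 of those called lower. Both counts were made among called transcripts only. Over all transcripts tested, called or not, 6799 (69.0%) had no overlap between the groups. The balance of the directions depended on scaling. TMM factors were 1.13 or more in Veh and at most 0.938 in T0+LPS, and scaling by library totals alone shifted the median log2 fold change of all transcripts by -0.26 and gave 1708 higher and 5571 lower. Some small positive differences are therefore given below with their value under library totals, and a shift of about -0.26 applies to the rest.

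**Figure D1:**
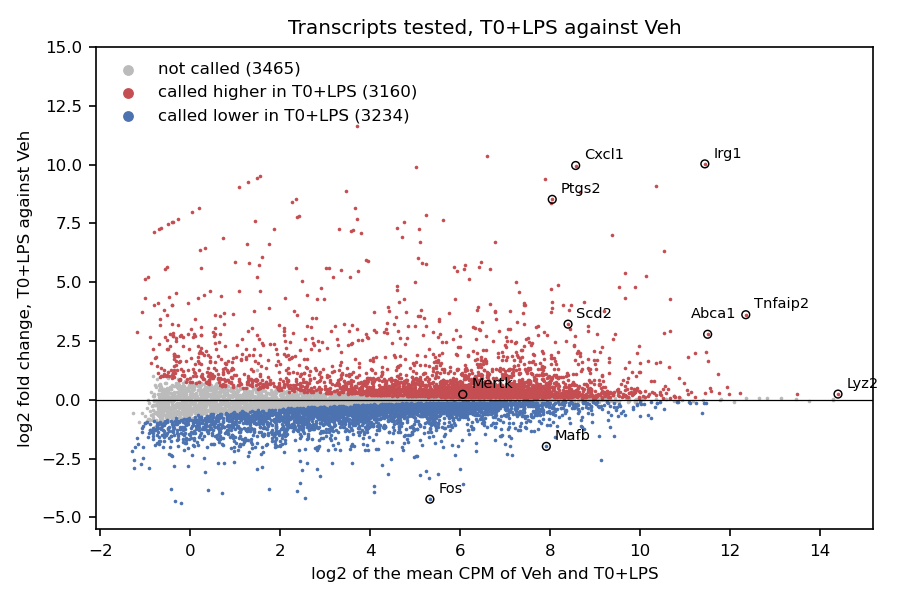
Log2 fold change of T0+LPS against Veh (vertical axis) by the log2 of the mean CPM of both groups (horizontal axis) for the 9859 transcripts tested, 1 point each. Most of the 3160 transcripts called higher and the 3234 called lower lie close to 0, and at 10-fold or more there are 165 higher, with Irg1 and Cxcl1 among them, and 13 lower; under library totals the median of all points lies at -0.29.

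To say what remained of the LPS response, transcripts were sorted by 3 edgeR fits, which share libraries pairwise. LPS against Veh gave 32.6% higher and 31.0% lower of the transcripts tested (1742 and 5462 transcripts under library totals), and T0+LPS against LPS gave 1.34% higher and 1.74% lower. Among 9421 transcripts tested in all 3 fits, LPS alone raised 3162, or 1717 under library totals. Of these, 2836 (89.7%) were still raised in T0+LPS, 324 (10.2%) were not called against Veh and 2 passed to the other side of the Veh level. LPS alone lowered 2850 (5236 under library totals), of which 2578 (90.5%) were still lowered, 266 (9.33%) were not called and 6 passed the Veh level. A transcript that is not called is not shown to be at the Veh level. The narrower term returned is kept for those that were also called different between T0+LPS and LPS, back toward Veh, of which there were 14 raised and 13 lowered. Under library totals the returned classes held 19 and 17 transcripts, with 4 of the 14 and 3 of the 13 among them. T0+LPS stood below LPS for 146 LPS-raised transcripts, and 130 of them were still raised over Veh. At the median, these 146 held 68.3% of the change in CPM that LPS alone gave, beside 93.3% over all LPS-raised transcripts; the class was chosen by a move toward Veh, which lowers its share. Among the 63 LPS-lowered transcripts that T0+LPS moved back up, 44 were still lowered and the median was 56.5%, beside 93.5% over all LPS-lowered ones. Single libraries weighed on these smaller counts: without LPS replicate 1 the 146 became 66 and the 63 became 26, without T0+LPS replicate 1 they became 86 and 38, and without T0+LPS replicate 2 they became 90 and 38. The not-called counts also moved: 324 became 213 without LPS replicate 1, and 266 became 419 without T0+LPS replicate 2 and 421 without T0+LPS replicate 3.

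Il1b, Ptgs2 and Irg1 stayed far above the resting level, and Myd88 stayed above it by less. Il1b (chr2:129364580-129371120), which encodes the cytokine interleukin-1 beta, was at 0.696, 1.59 and 3.07 CPM in the Veh libraries, 1276, 1146 and 1005 in LPS and 754, 779 and 917 in T0+LPS. No T0+LPS library overlapped Veh, and all lay below the lowest LPS library. The mean rose from 1.79 ± 1.20 to 817 ± 87.4 CPM in T0+LPS (log2 fold change 8.83, SE 0.157, adjusted p 6.7e-17), which left 71.5% of the LPS change in place. With 1 library left out the log2 fold change of Il1b was 8.40 to 9.51. Ptgs2 (chr1:150100124-150108012) encodes cyclooxygenase-2, the inducible enzyme of prostaglandin synthesis. Its level was 0.375, 1.79 and 2.20 CPM in Veh, 886, 827 and 834 in LPS and 452, 544 and 593 in T0+LPS, again without overlap between any groups. Against Veh it was raised by a log2 fold change of 8.52 (SE 0.178, adjusted p 4.7e-16), and 62.3% of the LPS change remained. Irg1 (chr14:103047012-103056573), also named Acod1, makes the metabolite itaconate. Here T0+LPS and LPS overlapped, with 5275, 5737 and 5727 CPM against 5793, 5678 and 5588, while Veh held 2.78, 6.62 and 6.67. The joint treatment thus kept Irg1 at 5579.6 ± 264 CPM (log2 fold change 10.03, SE 0.137, adjusted p 2.7e-18). Myd88 (chr9:119335988-119340040) encodes the adaptor that links Toll-like receptors to downstream kinases. It rose from 106 ± 0.225 CPM in Veh to 259 ± 7.74 in T0+LPS (log2 fold change 1.27, SE 0.0390, adjusted p 6.9e-14), and its 3 LPS libraries, at 249.5, 278 and 255, covered the T0+LPS range of 267, 259 and 251.

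**Figure D2:**
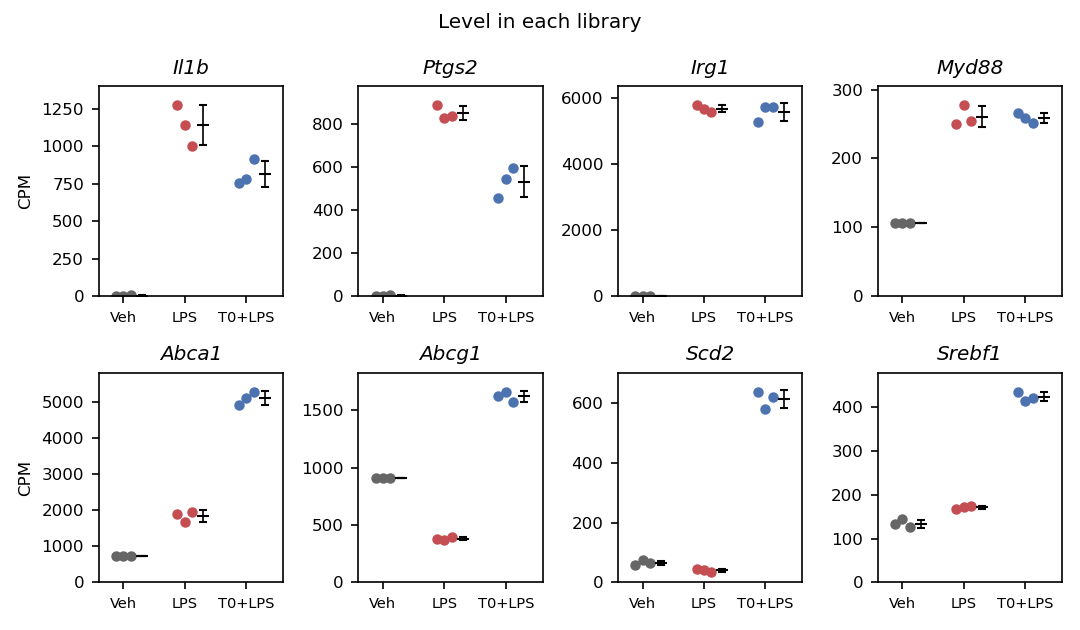
Level in CPM (vertical axes, from 0) of 8 genes in the 3 libraries of each group, with points for libraries and bars for the mean and SD. Il1b, Ptgs2, Irg1 and Myd88 stay above Veh in T0+LPS, and Abcg1 and Scd2, which lie below Veh in LPS, lie above it in T0+LPS.

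Neutrophil-attracting CXC chemokines gave some of the largest folds. Cxcl1 (chr5:90891245-90893115) was at 0.428, 0.993 and 0.869 CPM in Veh and 759.7, 741 and 784 in T0+LPS (log2 fold change 9.96, SE 0.0875, adjusted p 3.2e-20). Cxcl2 (chr5:90903899-90905938), its neighbour on the chromosome, rose from 4.78 ± 0.712 to 2616 ± 38.6 CPM (log2 fold change 9.08, SE 0.0649, adjusted p 4.1e-21). Cxcl3 (chr5:90786101-90788093), another ligand of the same receptor, had 7 reads over the 3 Veh libraries and 200.2, 187 and 198 CPM in T0+LPS (log2 fold change 10.37, SE 0.141, adjusted p 2.7e-18). All 3 kept most of the LPS change, at 84.1%, 86.1% and 88.8%. Il12b (chr11:44400063-44414017), the shared p40 chain of interleukins 12 and 23, had 3 reads in all Veh libraries together. Its T0+LPS libraries held 58.5, 61.2 and 74.8 CPM, a ratio of 1100 to Veh with a 95% counting interval of 377 to 5350. With 1 library left out the log2 fold change was 9.74 to 11.04 for Cxcl3 and 9.30 to 10.72 for Il12b. Tmem200b, a transmembrane protein gene (chr4:131921771-131923140), and Mab21l3, a Mab-21 family gene (chr3:101813076-101836223), had no read in Veh. Against a floor of 3 counts per library they were at least 147-fold higher and at least 32.8-fold higher in T0+LPS, with 23.0, 28.7 and 26.9 CPM for Tmem200b and 4.87, 7.10 and 5.54 for Mab21l3. Tnfaip2 (chosen after its values were seen), which encodes a TNF-inducible protein, showed the largest gain in CPM of the whole table, 8937 over Veh, and Irg1 the next largest, 5574. CPM is not scaled for transcript length, so ranks by CPM also depend on length.

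Promoter sequence is shown for 2 of these chemokines, for the NF-kB inhibitor gene Nfkbie and for Abca1, which together stand for the inflammatory and the lipid side of the joint state; they were chosen after the matches were seen. The windows run from 250 bases before to 50 after the start of a RefSeq transcript (build GRCm38.p6). Capitals mark letters of an NF-kB motif (GGGNNTTTCC) or an AP-1 motif (TGANTCA), searched on both strands. An interferon response motif (GAAANNGAAA) and a DR4 repeat, the spaced half-site pair that LXR heterodimers bind (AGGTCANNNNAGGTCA), were searched too.
Cxcl1: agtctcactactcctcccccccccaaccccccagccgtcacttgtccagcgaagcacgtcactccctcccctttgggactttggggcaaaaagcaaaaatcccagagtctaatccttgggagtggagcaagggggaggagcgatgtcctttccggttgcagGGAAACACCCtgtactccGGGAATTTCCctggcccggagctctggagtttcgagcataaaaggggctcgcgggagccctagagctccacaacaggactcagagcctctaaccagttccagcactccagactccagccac
Cxcl2: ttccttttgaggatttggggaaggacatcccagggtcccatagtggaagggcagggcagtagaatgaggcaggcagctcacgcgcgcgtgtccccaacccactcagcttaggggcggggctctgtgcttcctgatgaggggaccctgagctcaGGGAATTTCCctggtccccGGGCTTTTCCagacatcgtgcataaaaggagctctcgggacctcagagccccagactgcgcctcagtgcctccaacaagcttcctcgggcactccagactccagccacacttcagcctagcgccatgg
Nfkbie: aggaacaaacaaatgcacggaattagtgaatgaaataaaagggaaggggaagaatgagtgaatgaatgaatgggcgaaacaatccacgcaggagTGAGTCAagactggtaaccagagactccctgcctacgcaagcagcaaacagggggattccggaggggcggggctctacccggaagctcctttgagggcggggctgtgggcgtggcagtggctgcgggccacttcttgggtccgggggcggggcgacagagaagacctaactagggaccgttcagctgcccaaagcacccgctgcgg
Abca1: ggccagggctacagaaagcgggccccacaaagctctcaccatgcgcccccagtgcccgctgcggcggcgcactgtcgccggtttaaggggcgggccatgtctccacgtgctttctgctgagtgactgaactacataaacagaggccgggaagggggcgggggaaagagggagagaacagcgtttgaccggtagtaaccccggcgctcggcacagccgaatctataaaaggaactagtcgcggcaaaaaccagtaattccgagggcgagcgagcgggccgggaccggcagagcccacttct
These are chr5:90890995-90891294 (plus strand), chr5:90903649-90903948 (plus strand), chr17:45555450-45555749 (plus strand) and chr4:53159846-53160145 (minus strand). The NF-kB letters occurred 2 times each in Cxcl1 and Cxcl2. The AP-1 letters, which read alike on both strands, occurred at 1 place in Nfkbie. No searched letters occurred in Abca1, which says only that these exact letters are not in this window. Sites that differ from the searched letters were not looked for. Lower case therefore does not show that a window, such as that of Nfkbie or Abca1, lacks an NF-kB or LXR site. No matches overlapped in these windows. Of 32851 promoters, 1.63% held the NF-kB letters, 7.81% the AP-1 letters, 3.44% the interferon letters and 0.0152% the DR4 letters. Of 139 named transcripts, 110 had a promoter in the RefSeq table, and 6 held the NF-kB letters, 10 the AP-1 letters, 6 the interferon letters and 0 the DR4 letters. Since only 5 of all promoters held the exact DR4 letters, that 0 carries little information. A match is a description of sequence and was not tested for binding.

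LXR targets combined with LPS in several ways. Abca1 (chr4:53030789-53159895), which encodes the transporter that loads cholesterol onto apolipoprotein A-I, was at 724, 734 and 731 CPM in Veh, 1899, 1659.8 and 1960.0 in LPS and 4913, 5112 and 5280.0 in T0+LPS. Each group lay wholly above the previous one. The joint level exceeded Veh by a log2 fold change of 2.78 (SE 0.0365, adjusted p 1.8e-18), and the gain of 4372 CPM was rank 3 of all transcripts, against rank 31 in LPS alone. Both ranks also depend on the length of the Abca1 transcript, 10260 bases. Abcg1 (chr17:31057694-31117981), which exports cholesterol to HDL particles, went the other way in LPS. Its libraries held 912, 913 and 906 CPM in Veh, 376, 373 and 394 in LPS and 1627, 1663 and 1571 in T0+LPS. The level fell below Veh with LPS alone and passed above it in T0+LPS (log2 fold change 0.81, SE 0.0340, adjusted p 4.3e-12, and 0.55 under library totals). Scd2 (chr19:44293676-44306862), a stearoyl-CoA desaturase, did the same with a larger margin, at 58.9, 73.4 and 63.3, 43.6, 42.9 and 34.6 and 638, 578 and 621 CPM in the same order of groups (log2 fold change 3.21, SE 0.0628, adjusted p 2.1e-16). The related desaturase gene Scd1 (chr19:44394450-44407709) was not called in LPS and rose from 6.49 ± 0.106 CPM in Veh to 57.8 ± 4.17 in T0+LPS (log2 fold change 3.13, SE 0.0795, adjusted p 5.8e-15).

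Srebf1 (chr11:60199089-60220604), which encodes a transcription factor for fatty acid synthesis, was at 132, 144 and 126 CPM in Veh and 435, 414 and 421 in T0+LPS (log2 fold change 1.64, SE 0.0457, adjusted p 1.9e-14). LPS alone had raised it by a log2 fold change of 0.36, or 0.081 under library totals. Lpcat3 (chr6:124663104-124704716), which puts unsaturated acyl chains into phospholipids, was not called in LPS and was raised in T0+LPS, from 61.5 ± 1.66 to 118 ± 4.72 CPM, with 62.1 ± 2.22 in LPS (log2 fold change 0.92, SE 0.0459, adjusted p 3.9e-11 against Veh). Mylip (chr13:45389742-45411940), the ligase that marks the LDL receptor for breakdown, was likewise not called in LPS, and went from 100.4 ± 2.17 to 222 ± 3.50 CPM (log2 fold change 1.12, SE 0.0388, adjusted p 3.3e-13). Under library totals Lpcat3 and Mylip were called lower in LPS than in Veh, with -0.26 and -0.40 in place of 0.016 and -0.12, and Scd1 was again not called at -0.30 in place of -0.019. Not every listed target ended above Veh. Arl4c (chr1:88698226-88702191), a small GTPase gene, was at 259.9, 249 and 258 CPM in Veh, 64.2, 74.5 and 72.4 in LPS and 207, 178 and 167 in T0+LPS, so that it rose over LPS but stayed under every Veh library (log2 fold change -0.50, SE 0.0601, adjusted p 2.4e-06). Tgm2 (chr2:158116405-158146392), a transglutaminase, reached 383 ± 31.6 CPM from 43.2 ± 1.65 in Veh, with 376 ± 9.19 in LPS (log2 fold change 3.12, SE 0.0588, adjusted p 1.3e-16). Of the receptors, Nr1h3 had few reads on bases of its own, 0.535, 0.397 and 0.232 CPM in Veh and 0.761, 1.04 and 1.04 in T0+LPS (log2 fold change 1.24, SE 0.378, adjusted p 0.0091), and Nr1h2 had too few to test.

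Transcripts of the returned classes, which are not shown to equal Veh, are given with the 95% confidence interval of their log2 fold change against Veh. Itgb2 (chr10:77530348-77565674), the common chain of the beta 2 integrins, was at 2343, 2392 and 2374 CPM in Veh, 2738, 2653 and 2490.0 in LPS and 2316, 2239 and 2397 in T0+LPS. T0+LPS overlapped Veh and lay below every LPS library, and the interval was -0.13 to 0.018. LPS had raised Itgb2 by 0.15 on the log2 scale, which turned to -0.13 under library totals. The fall from LPS to T0+LPS had an adjusted p of 0.049, and Itgb2 left the returned class with the replicate block, under library totals, without LPS replicate 1 or 2 and without any of the T0+LPS replicates. Under library totals Itgb2 was called lower than Veh, at -0.31, close to the -0.26 by which that scaling moved all transcripts. Lrrk2 (chr15:91673224-91816124), a kinase gene, held 11.4 ± 0.648 CPM in Veh, 19.8 ± 1.05 in LPS and 12.9 ± 0.918 in T0+LPS, with an interval of -0.053 to 0.36. Traf5 (chr1:191997203-192092599), an adaptor of TNF receptors, had an interval of -0.082 to 0.20 after an LPS change of 0.51, and under library totals it was called lower than Veh, at -0.20. For Gm7030 the LPS libraries ranged from 1.43 to 18.9 CPM and for Pira2 they overlapped Veh, so that both returns rest on variable libraries. Without Veh replicate 2, Gm7030 was called higher than Veh, at 1.12. The interval of Pira2, -0.82 to -0.0066, left out 0, as did those of Ppip5k2 (0.0077 to 0.19) and Syne2 (0.0074 to 0.28), although their adjusted p missed the threshold. Pira2 was called lower than Veh with the replicate block, with no filter, under library totals and without Veh replicate 1 (-0.64). Ppip5k2 and Syne2 were called higher with DESeq2 size factors, with all 9 libraries in 1 fit and without T0+LPS replicate 1, and Ppip5k2 was called lower under library totals, at -0.16. The count of 14 fell to 3 without LPS replicate 1, 6 without T0+LPS replicate 1 and 4 without T0+LPS replicate 2.

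Among transcripts that LPS lowered, Eepd1 (chr9:25481597-25604110), an endonuclease family gene, came back from a clear fall. Its libraries were at 86.3, 91.3 and 89.8 CPM in Veh, 35.2, 42.8 and 38.7 in LPS and 99.3, 86.8 and 88.0 in T0+LPS, and the interval against Veh was -0.099 to 0.13. Pltp (chr2:164839518-164857708), the phospholipid transfer protein gene, came back to 1562 ± 42.1 CPM against 1524 ± 40.5 in Veh, with an interval of -0.061 to 0.090. Osgin1 (chr8:119437162-119446256), a gene of oxidative stress responses, had an interval of -0.21 to 0.25. Its LPS libraries, at 11.2, 16.4 and 16.6 CPM, lay below the 33.2, 25.9 and 25.4 of T0+LPS. With library totals the sign turned negative and the difference was called for Eepd1 (-0.25) and Pltp (-0.25), and relative to the shift of all transcripts they stood at 0.013 and 0.014. Asb2, a ubiquitin ligase subunit gene, counts as returned at -0.73 with an interval of -1.45 to -0.0068 that left out 0 and 49.7% of the LPS change kept. It was called lower than Veh with the replicate block, with no filter, under library totals (-0.99) and without Veh replicate 1 (-1.06). Rab39, a small GTPase gene, stood at -0.32 with an interval of -0.76 to 0.12, although its T0+LPS libraries all lay below Veh, and it was called lower under library totals (-0.58). The 13 returned transcripts became 3 without LPS replicate 1 and 4, 6 and 7 without T0+LPS replicates 1, 2 and 3.

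**Figure D3:**
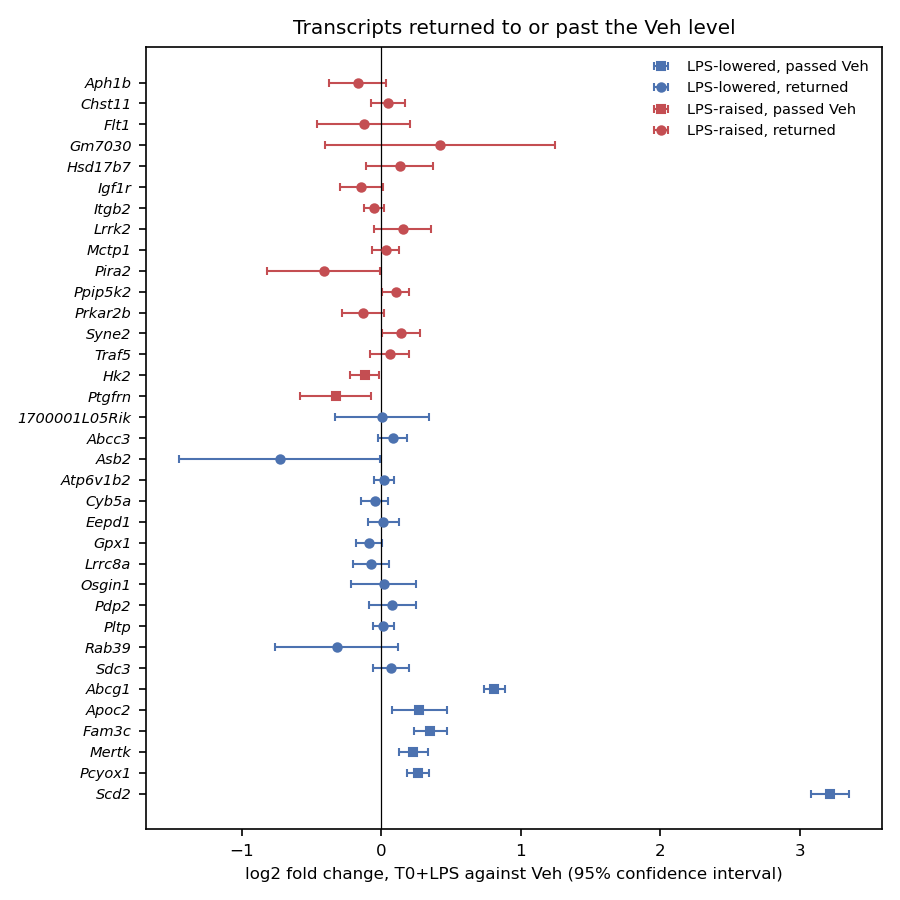
Log2 fold change of T0+LPS against Veh (horizontal axis) with its 95% confidence interval for the transcripts that returned to (circles) or passed (squares) the Veh level after LPS raised or lowered them. Most lie close to 0, Abcg1 and Scd2 stand at 0.81 and 3.21, and under library totals the points shift by -0.26, which turns Mertk negative.

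Besides Abcg1 and Scd2, 4 LPS-lowered transcripts passed above Veh by small amounts. Mertk (chr2:128698997-128802188), which encodes a receptor for the uptake of apoptotic cells, was at 60.8, 62.0 and 60.5 CPM in Veh, 34.2, 34.0 and 36.1 in LPS and 76.8, 69.9 and 71.4 in T0+LPS. The T0+LPS libraries were all above Veh (log2 fold change 0.23, SE 0.0485, adjusted p 0.00063), but under library totals the value was -0.031. Fam3c (chr6:22306522-22356081), a secreted protein gene, rose to 71.9, 65.4 and 65.8 CPM from 49.5, 54.0 and 53.3 in Veh (log2 fold change 0.35, SE 0.0543, adjusted p 3.2e-05). Pcyox1 (chr6:86386006-86397150), an oxidase of prenylated cysteines, rose to 359.7 ± 12.6 CPM from 295 ± 4.43 (log2 fold change 0.26, SE 0.0369, adjusted p 1.2e-05). Apoc2 (chr7:19671579-19677941), the cofactor of lipoprotein lipase, had a log2 fold change of 0.27 with an interval of 0.073 to 0.47 and was no longer called without Veh replicate 2 (0.17) or T0+LPS replicate 2 (0.22). Its LPS libraries overlapped Veh, and it also left the passed class when Veh replicate 1 or 3 or LPS replicate 1 or 3 was omitted. Under library totals Fam3c, Pcyox1 and Apoc2 were not called, at 0.092, 0.0026 and 0.0099. In the other direction, Hk2 (chr6:82725027-82774454), the inducible hexokinase, was at 85.5, 82.4 and 87.5 CPM in Veh, 108, 99.7 and 94.4 in LPS and 76.0, 84.1 and 78.7 in T0+LPS. Veh and T0+LPS overlapped for Hk2 (log2 fold change -0.12, SE 0.0485, adjusted p 0.042), and the call was lost with DESeq2, with its size factors, with no filter, with all 9 libraries in 1 fit, with the replicate block and when replicate 1 or 3 of Veh, or replicate 1 or 3 of T0+LPS, was left out, at -0.12, -0.098, -0.078 and -0.099. Under library totals neither Hk2 nor Ptgfrn was in the passed class, and the LPS changes of 0.24 and 0.28 became -0.038 and 0.0011. Ptgfrn (chr3:101040236-101110166), a regulator of the prostaglandin F2 receptor, fell to 7.00, 8.49 and 9.14 CPM from 10.7, 9.34 and 10.5 in Veh (log2 fold change -0.33, SE 0.118, adjusted p 0.024), and was not called with DESeq2 or when replicate 1 or 3 of Veh, or replicate 1 of T0+LPS, was left out, at -0.29, -0.31 and -0.22. Ptgfrn also left the passed class with no filter and when Veh replicate 2 or LPS replicate 3 was omitted.

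**Figure D4:**
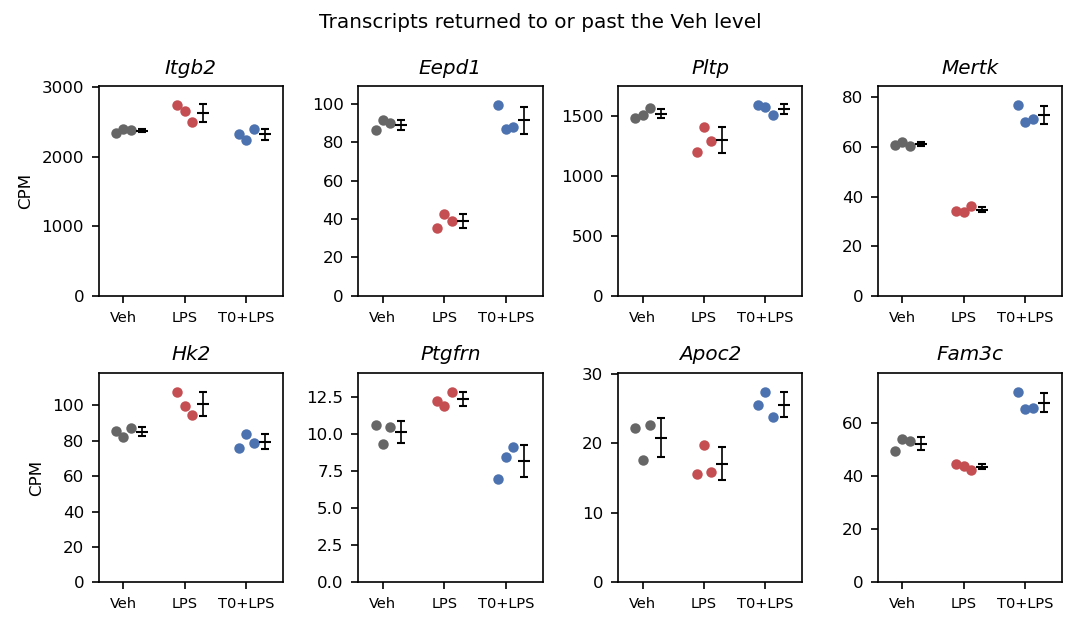
Level in CPM (vertical axes, from 0) of 8 transcripts at or past the Veh level, in the 3 libraries of each group, with points for libraries and bars for the mean and SD. Itgb2, Eepd1 and Pltp in T0+LPS overlap Veh, and Mertk in T0+LPS lies above Veh, though under library totals its difference is -0.031.

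The named transcripts with the largest falls against Veh were low in both treated groups. Fos (chr12:85473901-85477270), an AP-1 subunit, was at 82.0, 75.7 and 71.5 CPM in Veh, 3.80, 3.93 and 3.24 in LPS and 5.86, 3.06 and 3.60 in T0+LPS (log2 fold change -4.23, SE 0.121, adjusted p 2.8e-14 against Veh). Both treated groups lay far under Veh and overlapped each other. Angptl4 (chr17:33774900-33781575), an inhibitor of lipoprotein lipase, went from 11.1 ± 0.817 to 0.624 ± 0.183 CPM (log2 fold change -4.17, SE 0.199, adjusted p 2.2e-11). Bmf (chr2:118528757-118549678), a pro-apoptotic BH3 protein gene, was at 2.13 ± 0.869 CPM against 31.9 ± 1.11 in Veh (log2 fold change -3.94, SE 0.146, adjusted p 8.4e-13). Sox4 and Cbx8, which encode a transcription factor and a Polycomb protein, and Ier5l fell by 3.87, 3.80 and 3.65 on the log2 scale. Partial recovery marked Fbxo32 (chr15:58175879-58214892), a ubiquitin ligase subunit, which LPS took to 1.02 ± 0.145 CPM and which stood at 3.33 ± 0.773 in T0+LPS, against 21.0 ± 1.49 in Veh (log2 fold change -2.68, SE 0.133, adjusted p 3.7e-11).

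T0 carried some LPS changes further. Of LPS-raised transcripts, 40 were higher again in T0+LPS than in LPS, and 9 LPS-lowered ones were lower again, counts that became 22 and 20 under library totals. Cd38 (chr5:43868827-43912374), an NAD-consuming ectoenzyme, had 6 reads over the Veh libraries, 13.5, 13.1 and 13.5 CPM in LPS and 18.5, 20.9 and 19.5 in T0+LPS (log2 fold change 7.27, SE 0.229, adjusted p 9.7e-14 against Veh). Its log2 fold change against Veh was 6.96 to 8.11 with 1 library left out. Irf4 (chr13:30749258-30766927), a transcription factor of alternative activation, fell from 6.16 ± 0.713 CPM in Veh to 3.96 ± 0.528 in LPS and 1.85 ± 0.394 in T0+LPS (log2 fold change -1.74, SE 0.186, adjusted p 6e-07). Ccnd1 (chr7:144929931-144939925), which encodes cyclin D1, went from 53.5, 66.9 and 63.3 CPM in Veh to 27.6, 30.8 and 32.7 in T0+LPS (log2 fold change -1.03, SE 0.0808, adjusted p 1.4e-08). A further 22 transcripts were raised and 10 lowered in T0+LPS against both other groups without a call in LPS alone. Nes (chr3:87971093-87980451), the intermediate filament gene nestin, was such a case, at 76.8, 80.1 and 76.5 CPM in Veh, 76.0, 69.3 and 70.4 in LPS and 46.3, 47.5 and 55.4 in T0+LPS (log2 fold change -0.67, SE 0.0597, adjusted p 7.3e-08). Under library totals these joint-only classes held 17 and 12 transcripts and shared 5 of the 22 and 1 of the 10, and Nes was not among them. Without LPS replicate 1 the counts were 17 reinforced upward and 13 and 2 joint only, raised and lowered. Without T0+LPS replicate 2 they were 25 and 5 reinforced and 14 and 3 joint only. Without T0+LPS replicate 3, 6 were joint only and lowered, and without LPS replicate 3, 14 were reinforced downward.

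The same comparison was summarised over 14 gene lists, beside 32.1% higher, 32.8% lower and a median log2 fold change of -0.028 over all transcripts tested. Chemokine ligands had 16 of 17 called higher and 0 lower, with a median of 4.997, or 4.70 with the member at 0 in Veh set at its bound. Inflammatory cytokines had 17 of 18 higher and a median of 5.61, with Edn1, the vasoconstrictor endothelin, raised by 7.68. LPS alone gave 17 of 18 cytokines higher than Veh (median 6.28) and 15 of 16 chemokine ligands (median 4.94). Against LPS, T0+LPS was called lower for 10 of the 18 cytokines and higher for 0 (median -0.47). It was called lower for 3 of 17 chemokine ligands and higher for 0. Over all transcripts tested, 1.74% were called lower in that fit. All 17 NF-kB subunits and feedback regulators tested were higher (median 2.94). LPS alone also raised all 17 (median 2.95), and T0+LPS was called below LPS for 3 of them and above it for 0. Among the 17 was Socs3, an inhibitor of cytokine receptors, at 477 ± 49.8 CPM in T0+LPS against 0.703 ± 0.253 in Veh (log2 fold change 9.40, SE 0.126, adjusted p 2.2e-18). Nfkbie, an inhibitor of NF-kB, was at 549, 569.9 and 578 CPM in T0+LPS against 19.2, 18.9 and 19.1 in Veh (log2 fold change 4.87, SE 0.0449, adjusted p 3.6e-20). Effector enzymes were higher for 9 of 13 (median 3.42), while Ptgs1, the constitutive cyclooxygenase, fell by 0.48 on the log2 scale. Toll-like receptor pathway genes were higher for 10 and lower for 4 of 16 (median 0.90, 0.64 under library totals and 0.34 with no filter), with Tlr2, a lipopeptide receptor, at 1544 ± 40.9 CPM against 76.9 ± 2.17 and Tlr9, a DNA receptor, at 45.2 ± 2.65 against 57.5 ± 4.98. Interferon-stimulated genes were higher for 15 and lower for 1 of 26 (median 0.51, and 0.31 to 0.76 with 1 library left out). Gbp5, a GTPase of host defence, led them at 438, 530.5 and 592 CPM against 0.964, 1.99 and 1.80 in Veh (log2 fold change 8.36, SE 0.149, adjusted p 6.7e-17). Oas2, an oligoadenylate synthetase, was the lower one (log2 fold change -0.50, SE 0.146, adjusted p 0.0073), and it was not called with DESeq2, without Veh replicate 3 (-0.37) or T0+LPS replicate 3 (-0.37).

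LXR targets were higher for 13 and lower for 2 of 18, with a median of 0.87. The lower members were Arl4c and Cd5l, a secreted scavenger protein gene (log2 fold change -0.24, SE 0.0715, adjusted p 0.0078), and Cd5l was not called with DESeq2 or without T0+LPS replicate 3 (-0.15). Sterol synthesis and uptake genes were higher for 11 and lower for 3 of 21, and their median of 0.23 became -0.033 under library totals. LPS alone had raised 13 and lowered 3 of these 21 (median 0.58). T0+LPS was called lower than LPS for 4 of them and higher for 0 (median -0.14). Insig1, a brake on sterol synthesis, led the list in T0+LPS against Veh at 1.32. Dhcr7, an enzyme near the end of the pathway, fell by 0.93 on the log2 scale. Adhesion and chemotaxis genes were higher for 10 and lower for 6 of 19 (median 0.37, 0.24 to 0.43 with 1 library left out and 0.11 under library totals). The endothelial-type adhesion gene Vcam1 rose from 0.482, 0.463 and 0.290 to 46.6, 51.2 and 58.6 CPM (log2 fold change 6.94, SE 0.163, adjusted p 2e-15), whereas the chemokine receptor gene Cxcr4 went from 258, 225 and 237 to 53.3, 46.3 and 43.2 (log2 fold change -2.36, SE 0.0673, adjusted p 2.6e-14). Immediate-early factors split into 7 higher and 4 lower of 15, and the median of 0.15 became -0.11 under library totals. Maff, a small Maf protein gene, was raised by 5.75, and Atf3, a stress factor, stood at 358 ± 25.1 CPM against 1021 ± 13.4 in Veh (log2 fold change -1.54, SE 0.0442, adjusted p 2.8e-14).

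Phagocytic and scavenger receptors were higher for 7 and lower for 4 of 13, and their median of 0.23 became -0.031 under library totals. Of those called higher, Mertk, C1qa, C1qb and C1qc were not called under library totals, at -0.031, 0.062, -0.0043 and 0.027. Marco, a scavenger receptor, rose from 0.530 ± 0.0489 to 14.5 ± 1.89 CPM (log2 fold change 4.74, SE 0.195, adjusted p 3.3e-12), while Stab1, a receptor for modified lipoproteins, went from 1406 ± 63.3 to 908 ± 32.3 (log2 fold change -0.65, SE 0.0400, adjusted p 6e-10). Cell cycle genes were higher for 1, lower for 7 and not called for 11 of 19 (median -0.23, and -0.37 to -0.072 with 1 library left out). The 7 called lower stand beside 32.8% called lower over all transcripts tested. The only member called higher was the proliferation marker Mki67, at 50.5, 43.5 and 57.5 CPM in Veh and 262, 318 and 333 in T0+LPS (log2 fold change 2.57, SE 0.0898, adjusted p 4e-13). Lysosomal genes were higher for 2 and lower for 7 of 19 (median -0.10, -0.12 to -0.040 with 1 library left out and -0.36 under library totals), and 1 of the higher members, Npc2, a carrier of lysosomal cholesterol, turned from 0.12 to -0.14 under library totals. Glycolysis genes were higher for 5 and lower for 2 of 14, with a median of 0.016 that ranged from 0.016 to 0.082 with 1 library left out and became -0.24 under library totals. Slc2a1, the main glucose transporter gene, rose from 106 ± 3.63 to 361 ± 9.14 CPM (log2 fold change 1.75, SE 0.0404, adjusted p 1.7e-15). Some named members were counted over few bases that no other transcript shares, 258 for Tnfaip3, 164 for Slc2a6, 144 for Irak2, 78 for Ctsa and 5 for Psap, whose -1.15 is the largest fall of the lysosome list, and their values describe those bases alone.

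**Figure D5:**
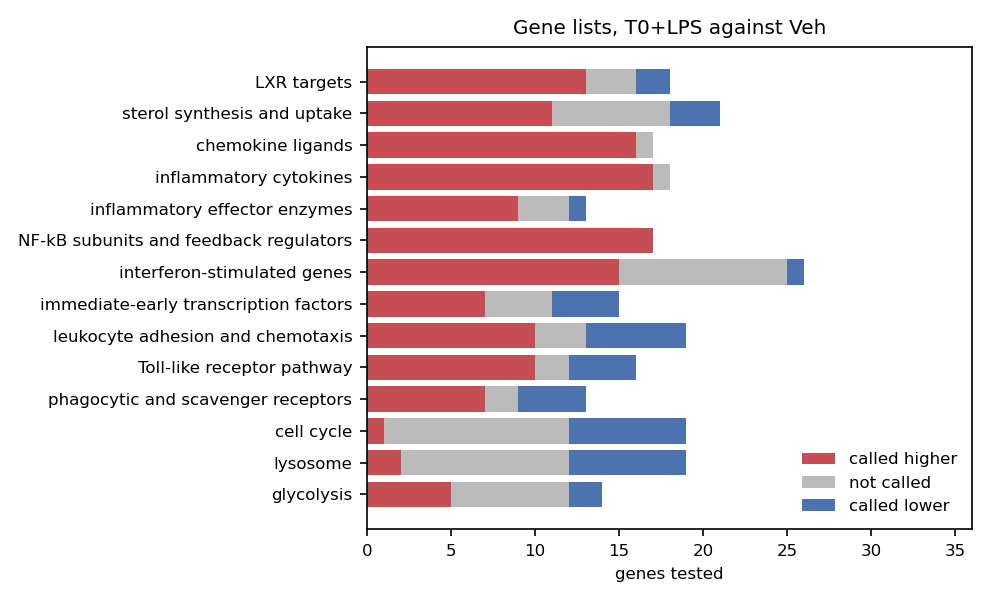
Number of genes tested (horizontal axis) in each of the 14 lists, split into those called higher, not called and called lower in T0+LPS against Veh. All 17 NF-kB genes and 16 of 17 chemokine ligands are called higher, and under library totals the medians of sterol, immediate-early, phagocytic and glycolysis genes turn negative.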

How the data were processed

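RNA of 9 libraries in 3 groups of 3 was analysed, grouped by the labels. The deposited values are raw read counts per RefSeq transcript, which the authors made by trimming reads (cutadapt), placing them on mm10 transcripts (HISAT2) and counting (featureCounts). Further deposited tables hold the authors' own comparisons (ratios of mean RPKM and DESeq2 adjusted p-values for T0+LPS over LPS, and a list of gene names for LPS against Veh) and were not used here. The unit was 1 transcript of the table, and for a symbol with several, the one with the highest mean CPM stood for it. Each pair of groups was tested with edgeR 4.0.16 in R 4.3.3 (TMM factors, filterByExpr, quasi-likelihood test, Benjamini-Hochberg adjustment over all transcripts tested, called at 0.05). On simulated counts the same fit called 177 of 179 changed transcripts in the right direction and 10 of 4176 unchanged ones. Those counts held few changed transcripts beside many unchanged ones, whereas most transcripts were called between T0+LPS and Veh. How often the fit is right for the small differences called here was not tested. Confidence intervals use the t quantile of the edgeR fit. The percentage of an LPS change that remained is the difference of mean CPM between T0+LPS and Veh over that between LPS and Veh. Library totals of 13299044 to 16467983 reads set the precision. Libraries of a group differed by more than sampling, with chi-square per degree of freedom from 2.58 to 6.52, and counting intervals and the floor of 3 counts per library cover counting error only. Alternatives were DESeq2 size factors, library totals, no filter, a plain count minimum, DESeq2 1.42.0, limma-voom (limma 3.58.1), all 9 libraries in 1 fit, a replicate block, an adjusted p under 0.01, a fold of at least 2, counts summed by symbol, and leaving out each library. Named genes were those the study names for macrophages, the 6 largest called changes without overlap in each direction (at least 5 CPM), up to 5 each of the opposed, passed, reinforced and joint-only transcripts per direction, and up to 3 called members of each gene list per direction. Members of the returned and passed classes, Tnfaip2, Lyz2, Apoe and 3 C1q genes were named after their values were seen. Members and lists were chosen with earlier results of these data known.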

Additional observations from a re-analysis of the deposited data

How the results depend on the processing

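Of 138 named transcripts tested, 117 held their direction under every alternative run, and 67 also their side of the threshold. Requiring a fold of at least 2 left 42 no longer called. Scaling by library totals left 10 no longer called, 21 newly called and 20 changed in sign. With limma-voom, 0 changed call. Not called before or after, Hsd17b7, Lrrk2, Syne2, 1700001L05Rik, Osgin1 and Pdp2 turned to -0.13, -0.11, -0.12, -0.25, -0.24 and -0.18 under library totals. Whether the replicate numbers pair libraries across groups was not settled. Departures from the group mean in Veh and in T0+LPS libraries of the same number correlated at 0.017, -0.0085 and -0.0094 over transcripts. Pairs with LPS libraries ranged from -0.0087 to 0.047. Such low values from groups of 3 cannot exclude a shared mouse or day. With the replicate block 3112 transcripts were higher and 3185 lower. Under library totals, the values were 1708 for transcripts higher in T0+LPS than in Veh, 5571 for transcripts lower in T0+LPS than in Veh, 1742 for LPS against Veh, higher, 5462 for LPS against Veh, lower, 1717 for LPS-raised, 1537 for LPS-raised, still raised, 177 for LPS-raised, not called, 22 for LPS-raised, reinforced and 5236 for LPS-lowered. Further under library totals, the values were 4881 for LPS-lowered, still lowered, 20 for LPS-lowered, reinforced, 0.61 for the median of LXR targets, -0.033 for the median of sterol synthesis and uptake, 4.74 for the median of chemokine ligands, 5.36 for the median of inflammatory cytokines, 2.68 for the median of NF-kB subunits and feedback regulators, -0.11 for the median of immediate-early transcription factors and 0.11 for the median of leukocyte adhesion and chemotaxis. Further under library totals, the values were 0.64 for the median of Toll-like receptor pathway, -0.031 for the median of phagocytic and scavenger receptors, -0.36 for the median of lysosome, -0.24 for the median of glycolysis, -0.031 for Mertk, -0.22 for Chst11, -0.23 for Mctp1, -0.16 for Ppip5k2 and -0.20 for Traf5. Further under library totals, the values were -0.25 for Eepd1, -0.18 for Abcc3, -0.24 for Atp6v1b2, -0.25 for Pltp, -0.19 for Sdc3, -0.14 for Npc2, -0.019 for Lyz2, -0.0043 for C1qb and -0.24 for Apoe. At a fold of at least 2 as well, the values were 761 for transcripts higher in T0+LPS than in Veh and 724 for transcripts lower in T0+LPS than in Veh. With no filter, the values were 226 for T0+LPS against LPS, higher, 282 for T0+LPS against LPS, lower, 24 for LPS-raised, returned, 232 for LPS-raised, opposed, 67 for LPS-raised, reinforced, 40 for joint only, raised, 518 for LPS-lowered, not called, 29 for LPS-lowered, returned and 14 for LPS-lowered, passed. Also with no filter, the values were 117 for LPS-lowered, opposed, 23 for LPS-lowered, reinforced, 19 for joint only, lowered, 4.70 for the median of chemokine ligands, 2.88 for the median of inflammatory effector enzymes, 0.80 for the median of interferon-stimulated genes, 0.34 for the median of Toll-like receptor pathway and 0.19 for the median of phagocytic and scavenger receptors. At an adjusted p under 0.01, the values were 65 for T0+LPS against LPS, higher, 78 for T0+LPS against LPS, lower, 4 for LPS-raised, returned, 0 for LPS-raised, passed, 70 for LPS-raised, opposed, 20 for LPS-raised, reinforced, 3 for LPS-lowered, returned, 29 for LPS-lowered, opposed and 5 for LPS-lowered, reinforced. Also at an adjusted p under 0.01, the value was 3 for joint only, lowered. With DESeq2 size factors, the value was 1 for LPS-raised, passed. With DESeq2, the values were 0 for LPS-raised, passed and 5.74 for the median of inflammatory cytokines. With all 9 libraries in 1 fit, the values were 1 for LPS-raised, passed, 15 for LPS-lowered, reinforced and 17 for joint only, lowered. With limma-voom, the value was 5.54 for the median of inflammatory cytokines. Leaving out 1 library at a time gave 2991 to 3159 for transcripts higher in T0+LPS than in Veh, 2971 to 3100 for transcripts lower in T0+LPS than in Veh, 56 to 154 for T0+LPS against LPS, higher, 74 to 190 for T0+LPS against LPS, lower, 213 to 407 for LPS-raised, not called, 3 to 17 for LPS-raised, returned, 0 to 4 for LPS-raised, passed and 66 to 162 for LPS-raised, opposed. It also gave 17 to 52 for LPS-raised, reinforced, 13 to 25 for joint only, raised, 203 to 421 for LPS-lowered, not called, 3 to 19 for LPS-lowered, returned, 26 to 75 for LPS-lowered, opposed, 5 to 14 for LPS-lowered, reinforced, 2 to 13 for joint only, lowered and 5.28 to 5.75 for the median of inflammatory cytokines. Further ranges were 0.24 to 0.43 for the median of leukocyte adhesion and chemotaxis, -0.12 to -0.040 for the median of lysosome, 0.016 to 0.082 for the median of glycolysis, 0.18 to 0.34 for the median of sterol synthesis and uptake, 0.31 to 0.76 for the median of interferon-stimulated genes and -0.37 to -0.072 for the median of cell cycle. The cause of these shifts was not tested, apart from the smaller number of transcripts or libraries that a stricter threshold or an omitted library leaves. With 3 libraries a group, an exact 2-sided permutation test cannot go below 0.1, so calls rest on the edgeR fit over all transcripts. Depth limits transcripts with few reads, such as Nr1h3 and Nr1h2, and bases shared between transcripts were not counted.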
